A study of Mus musculus with 6 samples.

Results

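Elastic fibres were followed here through 10 genes, namely elastin (Eln), the fibrillins Fbn1 and Fbn2, the fibulins Fbln1, Fbln2, Fbln5 and Efemp2, the microfibril-associated glycoproteins Mfap2 and Mfap5, and Emilin1. They were taken by gene name from a count table of 54532 genes, and all 10 had enough counts to be tested. The fitted level of all 10 was lower in HINT2-TG than in NTG hearts, from −1.59 on the log2 scale for Mfap5 to −0.49 for Mfap2, where 51.3% of all genes tested were lower. None passed the adjustment over all genes tested with edgeR's quasi-likelihood test, which called 0% of them in either direction. DESeq2 called 4 of the 10 lower, Fbn1, Fbln1, Fbln5 and Mfap5, and called 2.4% of all genes tested lower.

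The table holds poly-A selected RNA-seq of left ventricular tissue from 6 male mice, 3 TG and 3 NTG, with 1 library per heart. Every mouse underwent aortic banding (AB), a ligature around the thoracic aorta that loads the left ventricle with pressure, at an age of 8 to 10 weeks, and hearts were taken 4 weeks later. TG mice are labelled HINT2CTG-Myh6Cre. They carry a human HINT2 sequence behind the CAG promoter and a loxP-flanked stop signal, which Cre under the cardiomyocyte promoter of Myh6 removes after tamoxifen. NTG mice are labelled C57BL/6J, and whether they received Cre or tamoxifen is not given in the sources used here. The transgene, Cre and tamoxifen therefore cannot be told apart between the groups, and since all 6 hearts were banded, the levels do not show what banding does to these genes.

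An elastic fibre is a core of cross-linked elastin that is laid down on a scaffold of microfibrils. Fibrillins are the rods of the microfibril, the small Mfap glycoproteins sit on them, fibulins bring tropoelastin together with microfibrils and cross-linking enzymes, and emilin-1 lies where the core meets the microfibrils. In the heart these fibres run in the walls of coronary vessels, in valves and endocardium and between muscle bundles, and fibroblasts and smooth muscle cells make most of them. Microfibrils also bind the latent form of TGF-beta, the growth factor that drives matrix synthesis.

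The promoters of the members whose levels DESeq2 called lower are shown because these genes moved in the same direction. RefSeq (GRCm38.p6) gave promoters for 7 of the 10 genes, and for 3 of these 4, Fbn1, Fbln1 and Fbln5. The 250 bases before a start site are written 5′ to 3′ on the strand of the gene, with the start nearest to that of the gene in the count table where there are several. Capitals mark the GC box (GGGCGG) and the SMAD element (CAGAC) on either strand.
Fbn1 promoter: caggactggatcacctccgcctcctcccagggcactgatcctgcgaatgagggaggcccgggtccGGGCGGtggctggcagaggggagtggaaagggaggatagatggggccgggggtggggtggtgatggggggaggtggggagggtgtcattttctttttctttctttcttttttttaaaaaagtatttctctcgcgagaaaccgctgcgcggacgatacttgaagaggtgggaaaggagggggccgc
Fbln1 promoter: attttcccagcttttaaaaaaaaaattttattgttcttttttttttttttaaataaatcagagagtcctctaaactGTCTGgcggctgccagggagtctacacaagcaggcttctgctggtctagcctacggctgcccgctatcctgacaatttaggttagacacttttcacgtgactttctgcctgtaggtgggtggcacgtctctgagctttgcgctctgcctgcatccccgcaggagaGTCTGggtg
Fbln5 promoter: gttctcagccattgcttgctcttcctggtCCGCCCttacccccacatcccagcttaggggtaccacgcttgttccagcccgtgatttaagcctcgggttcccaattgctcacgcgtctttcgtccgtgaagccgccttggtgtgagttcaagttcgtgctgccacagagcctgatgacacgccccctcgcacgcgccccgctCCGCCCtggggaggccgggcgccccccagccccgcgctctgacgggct
They lie at chr2:125506439-125506688 (minus strand), chr15:85205699-85205948 (plus strand) and chr12:101819120-101819369 (minus strand). The Fbn1 start lies 1555 bases inside the gene as the table gives it, and the Fbln1 start coincides with that of the table, and the Fbln5 start lies 64 bases before it. The 3 stretches hold different letters. Fbn1 has 1 GC box and 0 SMAD elements, Fbln1 has 0 and 2, and Fbln5 has 2 and 0.

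Over windows that also take in 50 bases after the start, 12 promoters of 7 member genes were searched on both strands. The GC box was in 8 of the 12 and in 35.7% of all 32851 RefSeq promoters. The SMAD element was in 7 of 12 against 49.6%, and the E-box (CANNTG) in 7 of 12 against 72.3%. The TEAD element (CATTCC) was in 1 of 12, a promoter of Mfap2, against 14.7%. The TATA box (TATAAA), the AP-1 element (TGANTCA) and the CArG box were in 0 of the 12, and in 13.6%, 7.81% and 1.63% of all promoters. Several of the 12 overlap each other, and a match of letters is not a bound site.

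Levels are given as CPM, which are counts scaled to the library's TMM-normalized size, and groups as mean ± SD with n = 3. Fold changes are from edgeR on the log2 scale, TG against NTG, with Benjamini-Hochberg adjustment over 14774 genes. Calls needed an adjusted p below 0.05 together with a change larger than 0.5 on the log2 scale, and SE is the standard error of that change. At an unadjusted p under 0.05, 9.76% of all genes were lower and 8.83% higher. In bulk tissue, fewer cells of a type and less RNA per cell cannot be told apart.

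Total counts on genes were 14863568 to 17581220 per library, and the 10 genes took 0.155%, 0.310% and 0.253% of them in NTG 1, NTG 2 and NTG 3, and 0.106%, 0.160% and 0.0837% in TG 1, TG 2 and TG 3. Libraries of a group differed by more than sampling noise, the chi-square per gene being at least 15.8, and each was counted as 1 replicate. Mouse Hint2, the row that checks the labels as far as human reads align to it, had 793, 828 and 859 counts in TG, 545 and 559 in NTG 2 and NTG 3, and 12 in the library labelled NTG 1. On the first principal component of all genes (52.3% of the variance) that library lay at −5.08, nearest to TG 2 at −10.7, with NTG 2 at 55.7 and NTG 3 at 29.3. With all libraries Hint2 was not called (edgeR log2 fold change 1.33, SE 0.86, adjusted p = 0.433, and DESeq2 adjusted p = 0.575). Without NTG 1 edgeR called Hint2 higher (log2 fold change 0.77, adjusted p = 0.0212). For the 10 genes and the named genes of the other lists, the calls that change without NTG 1 are given beside them.

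Eln, on chromosome 5 from 134702593 to 134747323 (minus strand), encodes tropoelastin, the monomer of the elastic core. It measured 183, 192 and 249.7 CPM in NTG 1, NTG 2 and NTG 3, and 154, 177 and 112 CPM in TG 1, TG 2 and TG 3. Each TG library lay below each NTG library, with TG 2 closest, at 177 against 183 CPM in NTG 1. The means were 208 ± 36.3 CPM in NTG and 148 ± 32.6 CPM in TG hearts. The log2 fold change was −0.49 (SE 0.19, adjusted p = 0.231, edgeR), one of the smallest of the 10. Unlike the other genes with high counts, Eln was highest in NTG 3 and not in NTG 2.

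Fbn1, on chromosome 2 from 125300594 to 125507993 (minus strand), encodes fibrillin-1, the main fibrillin of adult tissue and the gene altered in Marfan syndrome. It measured 413, 897 and 718 CPM in the NTG libraries and 297, 418 and 182 CPM in the TG libraries. The groups touched, since TG 2 lay just above NTG 1, while NTG 2 and NTG 3 lay far above every TG library. The means were 676 ± 245 and 299 ± 118 CPM, 2.26-fold higher in NTG. edgeR fitted a log2 fold change of −1.18 (SE 0.37, adjusted p = 0.211 with edgeR and 0.0168 with DESeq2). The DESeq2 call rested on most of the libraries at once, and its adjusted p was 0.574 without NTG 2, 0.163 without NTG 3, 0.138 without TG 1 and 0.180 without TG 3.

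Fbn2 encodes fibrillin-2, which is made mostly before birth. It was the rarest member, at 58, 113 and 81 raw counts in NTG and 45, 53 and 56 in TG. In CPM these were 3.96, 6.00 and 4.69 against 3.25, 3.01 and 3.46. All 3 TG libraries lay under the lowest NTG library, NTG 1, and close together. On the log2 scale the difference was −0.60 (SE 0.23, adjusted p = 0.229, edgeR). At 45 counts the counting error alone is 14.9%, more than the spread of 6.86% between the TG libraries.

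Mfap5, on chromosome 6 from 122505845 to 122529290 (plus strand), encodes MAGP-2, a glycoprotein of the microfibril. It showed the largest difference of the 10. It measured 176, 372 and 300.5 CPM in NTG and 87.3, 144 and 50.4 CPM in TG libraries. No library of one group reached the other, with NTG 1 the nearest to TG at 1.23 times the level of TG 2. The means were 283 ± 99.0 and 93.8 ± 46.9 CPM, 3.01-fold higher in NTG. This was a log2 fold change of −1.59 (SE 0.43, adjusted p = 0.196 with edgeR and 0.00172 with DESeq2). The DESeq2 adjusted p was 0.374 without NTG 2 and 0.304 without TG 1.

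Mfap2, on chromosome 4 from 141010418 to 141015984 (plus strand), encodes MAGP-1, the relative of MAGP-2 that binds fibrillin and tropoelastin. It measured 5.80, 4.62 and 4.74 CPM in NTG and 3.61, 3.98 and 3.21 CPM in TG hearts. Its libraries were ordered unlike those of Mfap5, with NTG 1 the highest of the 6. The groups did not overlap, and the log2 fold change was −0.49 (SE 0.20, adjusted p = 0.257, edgeR). With 50 to 87 raw counts a library, its counting error reached 14.1%.

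**Figure D1:**
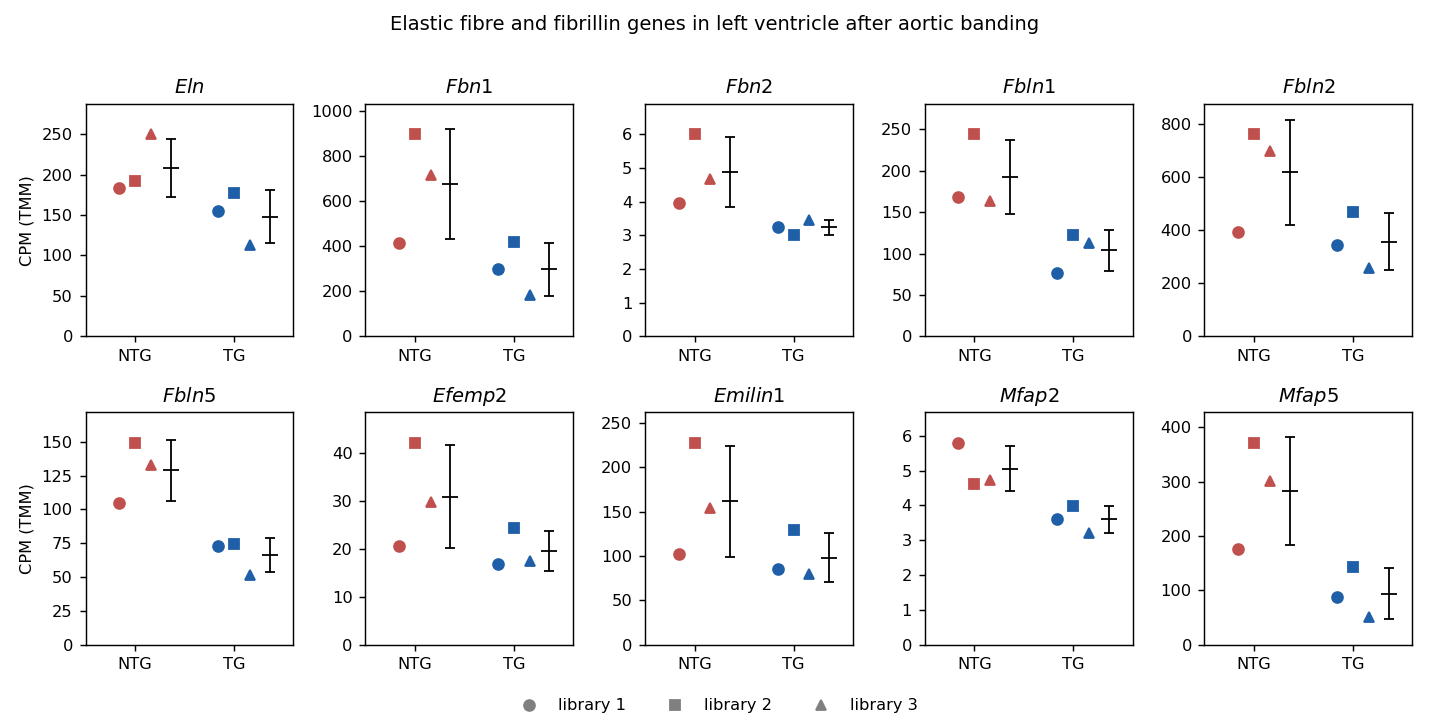
TMM-normalized CPM of each of the 10 genes in the 3 NTG (red) and 3 TG (blue) libraries, with a separate axis from 0 for each gene, symbols for library number, and bars for mean ± SD. All TG points lie below all NTG points for Eln, Fbn2, Fbln1, Fbln5, Mfap2 and Mfap5, and the groups overlap for Fbn1, Fbln2, Efemp2 and Emilin1.

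Fbln5, on chromosome 12 from 101746565 to 101819055 (minus strand), encodes fibulin-5, which binds tropoelastin and integrins and is needed for elastic fibres to assemble. It measured 105, 149 and 133 CPM in NTG and 72.8, 74.6 and 51.7 CPM in TG libraries. The gap between the groups was wide, with the lowest NTG library at 1.40 times the highest TG library. Means were 129 ± 22.6 and 66.4 ± 12.7 CPM, and the log2 fold change was −0.96 (SE 0.18). The adjusted p was 0.196 with edgeR and 0.000544 with DESeq2. DESeq2 called Fbln5 without each library in turn, with adjusted p from 3.25e-06 to 0.0266. These fits called 5.79%, 0.507% and 0.853% of all genes lower without NTG 1, NTG 2 and NTG 3, and 0.501%, 3.23% and 0.445% without TG 1, TG 2 and TG 3. With edgeR it was called without NTG 1 (log2 fold change −1.09, adjusted p = 0.0210), where 2.85% of 15136 genes were called lower and 2.67% higher. It was also called without the low-count filter (adjusted p = 0.0198), where 0.432% of 26858 genes were called lower, and it was not called without any other library (adjusted p from 0.142 to 0.425).

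Fbln1, on chromosome 15 from 85205949 to 85286535 (plus strand), encodes fibulin-1, a calcium-binding matrix protein found with elastin and fibronectin. It measured 169, 244 and 164 CPM in NTG and 76.3, 122.7 and 112 CPM in TG hearts. TG lay below NTG throughout, and here TG 1 and not TG 3 was the lowest. Means were 192 ± 44.9 and 104 ± 24.3 CPM, with a log2 fold change of −0.89 (SE 0.22, adjusted p = 0.196 with edgeR and 0.00751 with DESeq2). The DESeq2 adjusted p was 0.1003 without NTG 2, 0.0924 without TG 1 and 0.0645 without TG 3.

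Fbln2, on chromosome 6 from 91212455 to 91272540 (plus strand), encodes fibulin-2, a binding partner of fibrillin-1 that is abundant in heart valves and vessel walls. It measured 393, 760.5 and 699 CPM in NTG and 346, 469 and 256 CPM in TG libraries. TG 2 lay above NTG 1, and the other libraries were apart. Its log2 fold change was −0.79 (SE 0.30, adjusted p = 0.231 with edgeR and 0.0799 with DESeq2). Without NTG 1 edgeR called it as well, at −1.04 and an adjusted p of 0.0484. DESeq2 called it without NTG 1 (adjusted p = 0.000642) and without TG 2 (0.0173).

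Efemp2, on chromosome 19 from 5473973 to 5481853 (plus strand), encodes fibulin-4, which brings lysyl oxidase to tropoelastin. It measured 20.6, 42.2 and 29.9 CPM in NTG and 16.8, 24.3 and 17.3 CPM in TG libraries. The groups overlapped, with TG 2 above NTG 1. Its log2 fold change was −0.66 (SE 0.27, adjusted p = 0.256, edgeR), −0.89 without NTG 1 and −0.37 without NTG 2. DESeq2 called it only without NTG 1 (adjusted p = 0.00559, against 0.155 with all libraries). Its exons share 173 bases with Mus81 on the opposite strand (245 to 299 counts a library), and the strand setting of the counting is not given in the sources used here. Exons of Eln, Fbn1 and Fbn2 also overlap genes of the opposite strand, but these had at most 8 counts in any library.

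Emilin1, on chromosome 5 from 30913402 to 30921277 (plus strand), encodes emilin-1, a glycoprotein that holds elastin to microfibrils and keeps pro-TGF-beta from being processed. It measured 102, 228 and 155 CPM in NTG and 85.5, 129.7 and 79.3 CPM in TG libraries. TG 2 lay above NTG 1 and the groups overlapped. The log2 fold change was −0.72 (SE 0.32, adjusted p = 0.281, edgeR), the least certain of the 10. It was −0.97 without NTG 1 and −0.39 without NTG 2. DESeq2 called it without NTG 1 (adjusted p = 0.00399) and without TG 2, but not with all libraries (0.142).

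Taken as a group, 8 of the 10 genes had a log2 fold change under −0.5, where 10.2% of all genes tested did. At an unadjusted p under 0.05, 9 of 10 were lower, all but Emilin1. This count was 4 without NTG 2, NTG 3, TG 1 or TG 3, where 5.37%, 7.07%, 5.62% and 6.09% of all genes tested were lower at that p, and 5 without the low-count filter (6.35%). DESeq2 called 4 of 10 lower and 0 higher, against 2.4% and 1.54% of all genes tested. Without 1 library in turn it called from 1 of the 10 (without NTG 2 or TG 1) to 7 (without NTG 1). In these fits it called 0.507%, 0.501% and 5.79% of all genes lower, without NTG 2, TG 1 and NTG 1. For 6 of 10 every TG library lay below every NTG library, which held for 12.3% of all genes. The median log2 fold change of the 10 was −0.76, beside −0.0081 for all genes tested. These genes were chosen with earlier results of the same libraries known, so the counts are a description.

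**Figure D2:**
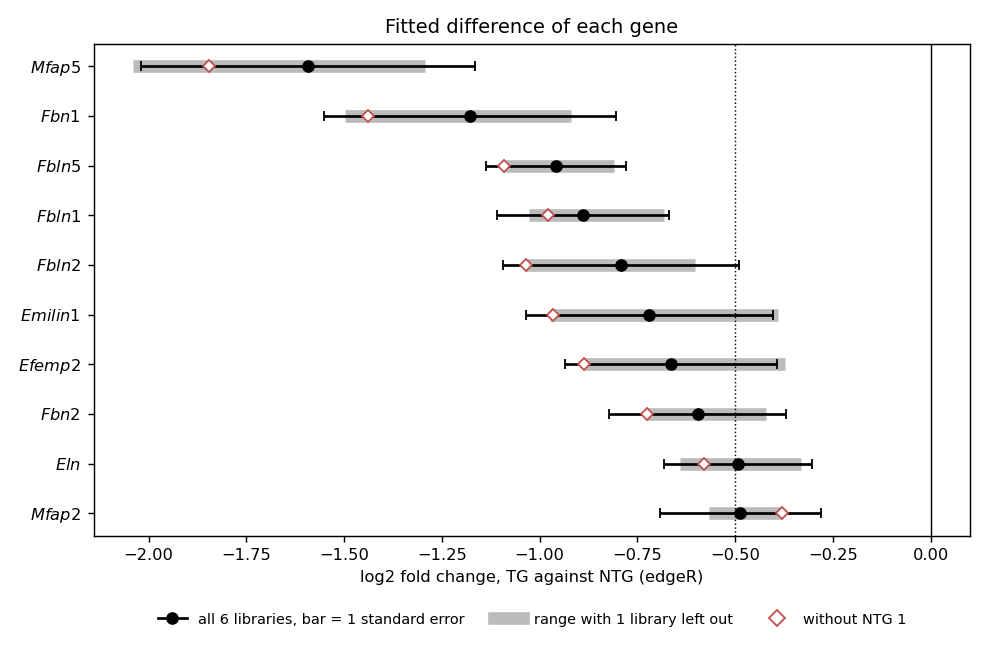
Fitted log2 fold change of each gene, TG against NTG, from edgeR (black points, bars of 1 standard error), with the range over fits that each left out 1 library (grey) and the value without NTG 1 (open diamonds). The dotted line marks −0.5. All values lie left of 0, from −1.59 for Mfap5 to −0.49 for Mfap2, and leaving out NTG 1 moved each gene but Mfap2 further from 0.

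The genes shared an order of libraries as well as a direction. NTG 2 was the highest of the 6 libraries for 8 of 10 genes, where this held for 27.1% of all genes tested, and Eln and Mfap2 were the exceptions. NTG 1 was the lowest NTG library for 8 of 10 (37.1% of all genes), and TG 2 the highest TG library for 9 of 10 (35.3%). TG 3 was the lowest of all for 7 (19.7%). As a mean of the 10 genes on the log2 scale, around each gene's own mean, NTG 1, NTG 2 and NTG 3 lay at 0.050, 0.72 and 0.47, and TG 1, TG 2 and TG 3 at −0.46, −0.085 and −0.70. The share of counts from the mitochondrial genome was 19.2%, 13.4% and 14.3% in NTG 1, NTG 2 and NTG 3 and 21.5%, 15.95% and 20.3% in TG 1, TG 2 and TG 3, lowest in the libraries where the 10 genes were highest, and its part in the result was not tested. NTG 1 and TG 2 lay next to each other in the middle, and NTG 1 was above TG 2 for 6 genes and below it for Fbn1, Fbln2, Efemp2 and Emilin1.

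**Figure D3:**
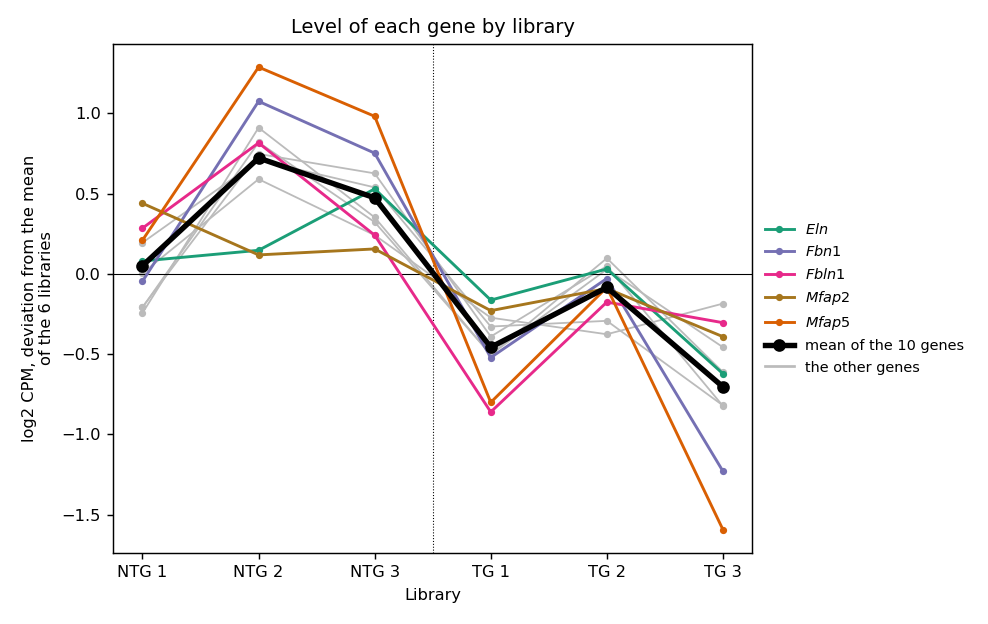
Log2 CPM of each gene around its own mean over the 6 libraries, by library, with the mean of the 10 genes in black. The mean runs from 0.72 in NTG 2 to −0.70 in TG 3, Mfap5 has the widest range, and Mfap2 is the flattest among the NTG libraries except for its high value in NTG 1.

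The genes whose profile over the 6 libraries was most like the mean of the 10 were P3h2, Mmp14, Sparc, Gpc6 and Fkbp10. Their log2 CPM, around their own means, differed from it by 0.0341, 0.0399, 0.0506, 0.0513 and 0.0536 on average over the 6 libraries. Among the 10 themselves, Fbln5 was closest at 0.113 and Mfap5 farthest at 0.411. P3h2, a prolyl hydroxylase gene, had 20.5 ± 4.41 CPM in NTG and 11.3 ± 2.77 CPM in TG hearts. Sparc, which encodes a collagen-binding glycoprotein, had 1931 ± 528 and 1105 ± 282 CPM. These 5 were picked for a profile in which NTG lies above TG, so their direction comes from the choice and is a description, with no test.

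Levels can be compared between genes only per length, as CPM divided by the kilobases of the gene in the table (RPKM). In NTG hearts the order was Fbln2 (96.9 ± 30.9 RPKM), Mfap5 (78.8 ± 27.6), Fbn1 (55.7 ± 20.2), Fbln1 (44.0 ± 10.3), Emilin1 (32.8 ± 12.8), Eln (25.7 ± 4.49), Fbln5 (18.7 ± 3.27), Efemp2 (11.7 ± 4.08), Mfap2 (4.17 ± 0.537) and Fbn2 (0.466 ± 0.0987). Neighbours in this order overlapped except for Eln over Fbln5, Efemp2 over Mfap2 and Mfap2 over Fbn2. Fibrillin-1 transcripts thus stood above those of fibrillin-2 by a ratio of 90.1, 129 and 132 in the NTG libraries and 79.1, 119.8 and 45.4 in the TG libraries. Lengths of Fbn2 and Efemp2 in the table are shorter than in GENCODE release 21, so their RPKM depend on the annotation.

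In TG hearts the order of the 10 means was the same. Fbln2 led at 56.0 ± 16.7 RPKM, and its lowest library stood above the highest of Mfap5. Mfap5 (26.1 ± 13.1), Fbn1 (24.6 ± 9.73) and Fbln1 (23.8 ± 5.57) lay within their spread of each other, as did Emilin1 (19.9 ± 5.57) and Eln (18.3 ± 4.03). Summed over the 10 genes, NTG libraries had 255, 465 and 387 RPKM and TG libraries 177, 248 and 142 RPKM. Every TG sum lay under every NTG sum, with TG 2 and NTG 1 again the closest.

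**Figure D4:**
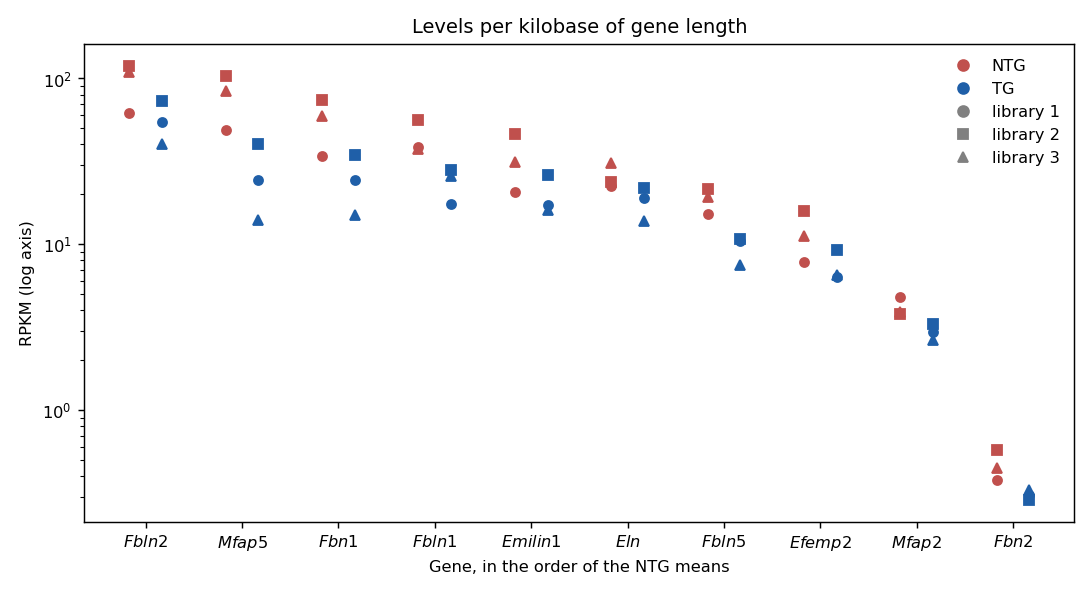
RPKM of the 10 genes on a log axis, in the order of the NTG means, for NTG (red) and TG (blue) libraries. Means run from 96.9 RPKM for Fbln2 to 0.466 RPKM for Fbn2 in NTG hearts, and the order of the means is the same in TG hearts.

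The shares of Mfap5 and Efemp2 in the set were apart between the groups, in opposite directions, and those of the other members overlapped. Shares of the same sum are tied to each other, and no test was made of them. The level of Efemp2 itself was lower in TG, at a log2 fold change of −0.66. Mfap5 held 19.2%, 22.3% and 21.6% of the summed RPKM in the NTG libraries and 13.7%, 16.1% and 9.89% in the TG libraries, without overlap. Efemp2 held 3.06%, 3.43% and 2.91% in NTG and 3.58%, 3.71% and 4.62% in TG libraries, also without overlap. The share of Emilin1 was 8.14%, 9.94% and 8.10% in NTG and 9.78%, 10.6% and 11.3% in TG libraries, which overlapped. Eln held 8.86%, 5.09% and 7.96% of the sum in NTG and 10.8%, 8.81% and 9.78% in TG libraries, with NTG 1 just above TG 2.

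Ratios between partners of the fibre were taken within each library, 8 in all. Mfap5 over Fbn1, microfibril glycoprotein over fibrillin, was 1.44, 1.40 and 1.42 in NTG, the tightest measure of the set, and 0.994, 1.16 and 0.937 in TG libraries. The groups did not overlap (1.42 ± 0.0211 against 1.03 ± 0.117; p = 0.1 in a two-sided exact permutation test, which 3 against 3 cannot go under, and 0.32 adjusted over the 8 ratios). Fbln5 over Eln was 0.670, 0.913 and 0.623 in NTG and 0.552, 0.495 and 0.539 in TG libraries, also without overlap (exact permutation test, p = 0.1, adjusted 0.32). Eln over Fbn1 was 0.664, 0.320 and 0.521 in NTG and 0.779, 0.634 and 0.926 in TG libraries, and overlapped (exact permutation test, p = 0.2). The ratios of Mfap5 to Mfap2, Fbn1 to Fbn2, Fbln2 to Fbln1, Efemp2 to Eln and Emilin1 to Eln also overlapped between the groups.

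**Figure D5:**
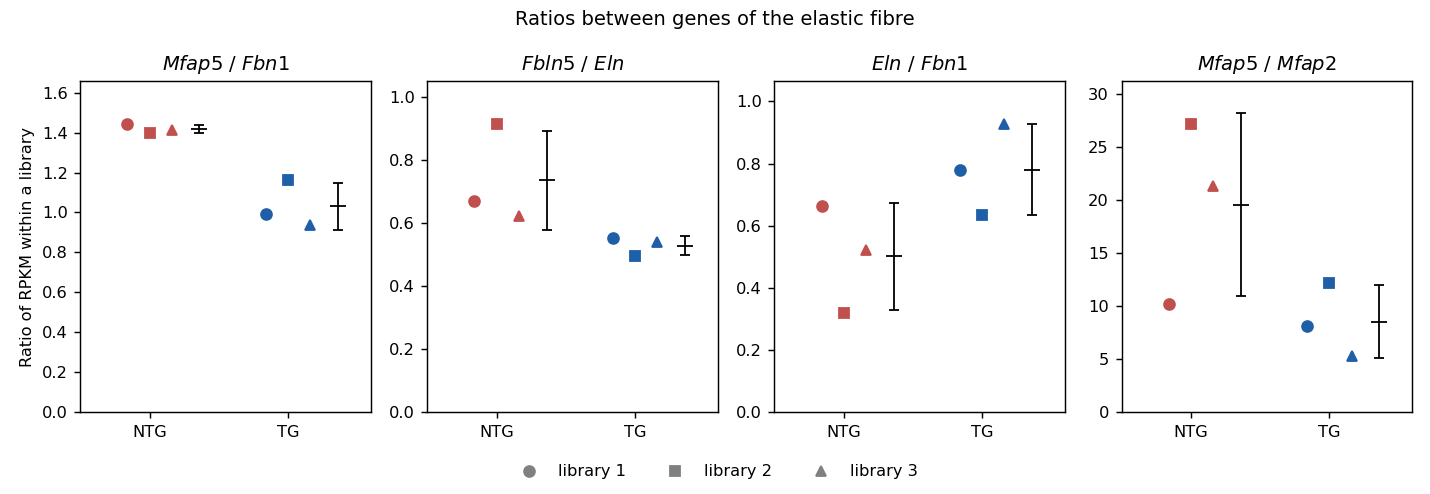
Ratio of RPKM within a library for 4 pairs of genes, in NTG (red) and TG (blue), with bars for mean ± SD and axes from 0. Mfap5 over Fbn1 lies between 1.40 and 1.44 in NTG and between 0.937 and 1.16 in TG libraries, while Eln over Fbn1 and Mfap5 over Mfap2 overlap.

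Other genes of elastic fibre assembly and turnover, in 9 lists written from general knowledge, gave 65 genes, of which 63 were tested. Of these, 50 had a lower and 13 a higher fitted level in TG hearts, where 51.3% of all genes tested were lower. At an unadjusted p under 0.05, 35 were lower and 3 higher, against 9.76% and 8.83% of all genes. edgeR called 0 with all libraries. Without NTG 1 it called 12 lower and 1 higher, against 2.85% and 2.67% of all genes. DESeq2 called 21 lower and 1 higher, against 2.4% and 1.54%. Without 1 library in turn DESeq2 called from 3 lower (without TG 1, 0.501% of all genes) to 30 lower (without NTG 1, 5.79%). The same shares over all genes stand beside the counts of each list below. The median log2 fold change of the 63 was −0.52. In each list the 2 genes with the smallest edgeR p are named, and each of these had an adjusted p from 0.196 to 0.213 with edgeR. DESeq2 called 13 of these 18 with all libraries. All 13 were called without NTG 1 or TG 2, but 6 without NTG 2, 5 without NTG 3, 3 without TG 1 and 4 without TG 3. Bgn, Hmcn2 and Loxl3 were called in each of these fits. Without NTG 1, edgeR called 9 of the 18, and each is given with its adjusted p where it is described.

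All 5 lysyl oxidases, the enzymes that cross-link elastin and collagen, were lower at an unadjusted p under 0.05, with a median of −1.28, and DESeq2 called 4. Lox had 302 ± 272 CPM in NTG and 27.6 ± 13.7 CPM in TG hearts (log2 fold change −3.45), and NTG 2 alone reached 614 CPM. Without NTG 2 its log2 fold change was −2.40. Loxl3 had 90.6 ± 45.0 and 21.7 ± 9.04 CPM (−2.06), and edgeR called it without NTG 1 (adjusted p = 0.0452). Both exceeded every member of the set in the size of the difference. Of the 4 latent TGF-beta binding proteins, DESeq2 called Ltbp2 (log2 fold change −2.54) and Ltbp3 (−0.92) lower. It called neither without NTG 2, NTG 3, TG 1 or TG 3 (adjusted p from 0.228 to 0.339 and from 0.134 to 0.186). Ltbp2 was at −3.35 without TG 2 and at −1.98 without NTG 2. Ltbp4, the most abundant of them, had 1534 ± 301 CPM in NTG and 1374 ± 361 CPM in TG hearts, and this gene was named after its values were seen.

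The relatives of the fibulins and emilins were split, with 4 of 9 lower and 5 higher in fitted level and 2 in each direction at an unadjusted p under 0.05. Hmcn2, a hemicentin of the fibulin family, had 39.7 ± 14.6 CPM in NTG and 91.7 ± 11.6 CPM in TG hearts, a log2 fold change of 1.21, and DESeq2 called it higher (adjusted p = 0.000494). edgeR called it without NTG 1 (1.55, adjusted p = 0.0108). Mmrn1, a multimerin of platelets and endothelium, had 25.3 ± 7.29 and 12.1 ± 1.72 CPM (−1.06), which DESeq2 called lower (adjusted p = 0.00285) and edgeR called without NTG 1 (0.0164) and without the low-count filter (0.0267). Mfap4, a microfibril-associated glycoprotein named after its values were seen, was the other gene of the list that DESeq2 called lower (adjusted p = 0.000526). It measured 173, 266 and 211 CPM in NTG and 50.8, 121 and 59.1 CPM in TG libraries. Its log2 fold change of −1.49 was larger in size than that of every member but Mfap5. edgeR called Mfap4 without TG 2 (−1.98, adjusted p = 0.0480), and DESeq2 did not call it without NTG 2 (0.270). Among 8 ADAMTS and ADAMTS-like genes of the microfibril, 7 were lower in fitted level and 3 at an unadjusted p under 0.05. Adamtsl2 (−0.72) and Adamts6 (−0.95) were the named ones, and DESeq2 called 0 of the 8 with all libraries. Without NTG 1, DESeq2 called Adamts6 (−1.18, adjusted p = 0.00643) and Adamtsl2 (−0.79, 0.0260), and edgeR called Adamts6 (−1.19, 0.0483). In edgeR without NTG 2, Adamts6 was at −0.62 (adjusted p = 0.496). Without TG 2, DESeq2 called Adamtsl2 (−1.03, adjusted p = 9.47e-07).

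Of 7 matrix proteins that bind fibrillin or tropoelastin, 4 were lower and 1 higher at an unadjusted p under 0.05, and DESeq2 called 4 lower. Bgn (biglycan) had 2312 ± 798 CPM in NTG and 879 ± 324 CPM in TG hearts (−1.40), and edgeR called it without NTG 1 (adjusted p = 0.0332). Vtn (vitronectin) had 38.2 ± 1.64 and 49.1 ± 0.507 CPM (0.36). Of 12 receptors of elastic fibres, integrins and the subunits of the elastin receptor complex, 6 were lower at an unadjusted p under 0.05. Itgb5 had 333 ± 76.6 and 184 ± 39.0 CPM (−0.85) and was the 1 that DESeq2 called, and Ctsa was at −0.44. Without NTG 1, edgeR called 4 of the 12 lower, among them Itgb5 (−1.02, adjusted p = 0.0264) and Ctsa (−0.57, 0.0292), and DESeq2 called Ctsa as well (−0.56, 0.000215).

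All 8 tested elastin-degrading enzymes had lower fitted levels in TG hearts, 6 of them at an unadjusted p under 0.05, with a median of −0.79. Ctsl had 259 ± 13.2 and 185 ± 17.6 CPM (−0.48), and Ctsk was at −0.90. DESeq2 called Ctsk with all libraries, and called Ctsl without TG 2, where it passed −0.5. Of the 4 inhibitors of metalloproteinases, Timp1 was at −2.69 and Timp2 at −0.67, and DESeq2 called both lower. Timp1 was at −1.67 without NTG 2, and DESeq2 called neither of them without NTG 2, NTG 3, TG 1 or TG 3. edgeR called Timp2 without NTG 1 (adjusted p = 0.0325) and without the low-count filter (0.0148). The other two of the list, named after their values were seen, were Timp3 at −0.39 and Timp4 at 0.66, with 60.1 ± 18.9 CPM in NTG and 94.8 ± 40.8 CPM in TG hearts. DESeq2 called Timp4 higher without TG 2. Of 6 TGF-beta ligands and receptors, 6 had lower fitted levels and DESeq2 called 3, among them Tgfb2 (−1.11) and Tgfbr1 (−0.80). edgeR called Tgfbr1 without NTG 1 (adjusted p = 0.0456).

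Markers of the cell types that make elastic fibres were compared in the same libraries. The summed CPM of 10 fibroblast markers were 5214, 7545 and 5901 in NTG and 3827, 5273 and 3915 in TG libraries, which overlapped, and 6 of the 10 were lower at an unadjusted p under 0.05, of which DESeq2 called 2. A large part of that sum was Gsn, the 1 fibroblast marker with a higher fitted level in TG. It measured 2219, 1316 and 2234 CPM in NTG and 1933, 2605 and 2282 CPM in TG libraries. The 8 markers of activated fibroblasts summed to 2146, 5964 and 3806 CPM in NTG and 656, 1434 and 472 CPM in TG libraries, without overlap. Of these, 6 were lower at an unadjusted p under 0.05 (DESeq2 called 5), Fap overlapped between the groups, and Acta2 was higher in TG (0.42, DESeq2 adjusted p = 0.00416). Postn was the highest of the 8 in every library, with 943, 3566 and 2082 CPM in NTG and 281, 672 and 178 CPM in TG libraries. Smooth muscle markers summed to 2871, 4100.1 and 4255 CPM in NTG and 2930.0, 3017 and 2511 CPM in TG libraries, with overlap, and 5 of the 8 were higher in TG at an unadjusted p under 0.05, with a median log2 fold change of 0.43. The muscle filament gene Des, which cardiomyocytes also express, made up 84.8% to 94.1% of that sum. Without Des, left out after the values were seen, the other 7 markers summed to 313, 242 and 302 CPM in NTG and 434, 387.5 and 381 CPM in TG libraries, higher in TG without overlap. No member of the set is in these lists, and Acta2 is in both the activated fibroblast and the smooth muscle list. The part of these cells in the lower levels was not tested.

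Set against these sums, the 10 genes gave different pictures. Their summed CPM were 30.1%, 38.4% and 41.7% of the fibroblast markers in NTG and 29.9%, 29.7% and 22.2% in TG libraries. The groups were apart by a margin as small as that between NTG 1 and TG 1. Gsn, which was not lower in TG, weighs on this ratio, and the ratio without Gsn was not computed. Against the activated fibroblast markers the direction turned, with 73.2%, 48.5% and 64.6% in NTG and 174%, 109% and 184% in TG libraries. Against the smooth muscle markers the shares were 54.7%, 70.6% and 57.8% in NTG and 39.0%, 51.9% and 34.6% in TG libraries, mostly a ratio to Des. Against the endothelial markers the shares were 90.1%, 153% and 121% in NTG and 58.4%, 79.4% and 48.3% in TG libraries. The groups were apart in these 4 ratios. Each had an exact permutation p of 0.1, the smallest possible here, and of 0.15 after adjustment over the 6 ratios to whole marker lists. The other two overlapped, with 5.74%, 17.02% and 10.6% against 3.48%, 5.85% and 2.72% for the cardiomyocyte markers (exact p = 0.2) and 292.2%, 292.3% and 407% against 289%, 304% and 158% for the macrophage markers (exact p = 0.4). Against the 7 smooth muscle markers other than Des the shares were 501%, 1197% and 815% in NTG and 263%, 404% and 228% in TG libraries. This ratio was added after the values were seen and is outside that adjustment.

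Other markers were checked for the tissue. Cardiomyocyte markers summed to 17012 to 27372 CPM in NTG and 26767 to 32882 CPM in TG libraries, with overlap, and 2 of the 8 were higher at an unadjusted p under 0.05. Macrophage markers summed to 537 to 990.45 CPM in NTG and 395 to 550.15 CPM in TG libraries, with overlap. All 7 had a lower fitted level in TG hearts, 4 of them at an unadjusted p under 0.05, DESeq2 called 1, and edgeR called 2 without NTG 1. Neutrophil markers were at 241 CPM in NTG 2 against 8.36 to 36.7 CPM in the other libraries, and NTG 2 is the library in which most of the 10 genes were highest. Erythroid markers were at 1310 to 2245 CPM in NTG and 762 to 908 CPM in TG libraries, without overlap. All 5 were lower at an unadjusted p under 0.05, DESeq2 called 4, and edgeR called 5 without NTG 1. Atrial markers were at 2.20 to 167 CPM with the highest value in TG 3, and the atrial gene Bmp10 was under 1 CPM everywhere. Of the epicardial markers, Wt1 was at 20.4 to 41.6 CPM and the other 5 at 0 to 1.68 CPM. Of the fat cell markers, Fabp4, which endothelial cells also express, was at 704 to 883 CPM, and Adipoq, Plin1, Lep and Cidec were under 1 CPM in every library. Schwann cell markers summed to 4.16, 4.04 and 4.11 CPM in NTG and 8.73, 8.64 and 10.8 CPM in TG libraries, without overlap, and DESeq2 called 2 of the 4 higher. Endothelial markers summed to 1743 to 2030 CPM in NTG and 1799 to 1972 CPM in TG libraries, and pericyte markers to 1484 to 1879 and 1547 to 1870.1 CPM, both with overlap. Lymphocyte markers summed to 1.68 to 6.98 CPM over the 6 libraries. The part of any of these in the results was not tested.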

How the data were processed

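Left ventricular RNA of 3 TG and 3 NTG mice was sequenced with 1 library per heart. Per the methods, the authors mapped cleaned reads to a genome, used StringTie to predict transcripts and featureCounts to count. They deposited raw counts without normalization, with the length of each gene in bases. The submitters' processing notes name HISAT2, DESeq2 and GRCh38, but the gene identifiers are those of mouse, and 98.3% of the 54495 genes found in GENCODE mouse release 21 (GRCm38) have identical coordinates. The strand setting and the treatment of multi-mapping reads are not given in the sources used here.

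From these counts, R 4.3.3 with edgeR 4.0.16 gave TMM-normalized CPM and the quasi-likelihood test (filterByExpr by group, robust estimates, no covariate) over 14774 genes. Depth was 14863568 to 17581220 counts per library, and the common biological coefficient of variation was 18.7%. DESeq2 1.42.0, limma 3.58.1 (voom), other scalings and filters, a replicate block and each library left out in turn were alternatives, and DESeq2 with each library left out was added after the values were seen. The tests were also run on simulated counts that took their levels and dispersions from these libraries. Log2 CPM of profiles has a prior count of 2. RPKM is CPM per kilobase of the length in the table. The genes named are the 10 members, Hint2, the 2 genes of each other list with the smallest edgeR p and the 5 nearest in profile. Members, lists and alternatives were chosen with earlier results of these data known. Sham-operated mice were not analysed here. Nothing says that libraries of a group share a litter or batch, and p-values measure the spread between these hearts.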

Additional observations from a re-analysis of the deposited data

How the results depend on the processing

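All 10 genes kept a lower fitted level in TG hearts in each of the 21 alternative fits, of which 6 were added, and the median log2 fold change of the 10 lay between −1.0 and −0.58 when single libraries were left out. Calls depended on the test. edgeR called 0 of the 10 and 0 genes in all under scaling by RLE, upper quartile or library size alone, a minimum of 10 counts in every library, robust = FALSE and an adjusted p alone. With no low-count filter it called 1 of the 10 lower (Fbln5), with 116 genes higher and 116 lower in all. DESeq2 called 4 of the 10 lower, with 228 genes higher and 355 lower, and limma-voom called 0 of the 10, with 1 gene higher. The cause was not tested. With 1 library left out in turn, edgeR and DESeq2 together called 0 to 7 of the 10 lower, 0 to 896 genes higher and 0 to 877 lower. edgeR called 404 higher and 432 lower without NTG 1, and at most 4 in either direction without any other library. DESeq2 called 7 of the 10 without NTG 1 (896 genes higher and 877 lower) and 6 without TG 2 (292 and 486). It called 3 without NTG 3 (40 and 129), 2 without TG 3 (29 and 67), and 1, Fbln5, without NTG 2 (47 and 76) or TG 1 (103 and 76). The added fits with DESeq2 were chosen after seeing the data. At an unadjusted p under 0.05, edgeR had 4 of the 10 lower without NTG 2, NTG 3, TG 1 or TG 3, against 9 with all libraries.

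Deviations from the group means correlated at 0.0807, 0.173 and −0.252 between libraries of the same number. Between libraries of different numbers they correlated at −0.253 to 0.167. With 3 libraries a group, these values cannot tell whether the replicate numbers pair the samples. With a replicate block, edgeR called 1 of the 10 lower (Fbln1, adjusted p = 0.0436), with 84 genes higher and 147 lower. Among the other named genes that fit called Hmcn2 higher. It called Bgn, Ctsk, Itgb5, Loxl3, Ltbp3, Mmrn1, Tgfbr1, Timp2, Mmp14 and Fkbp10 lower. Their adjusted p, with that of Hmcn2, ran from 0.0356 to 0.0497.

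Depth limited Fbn2 and Mfap2 most, where counting error reached 14.9% and 14.1%, against at most 6.55% for the other members.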
